A study of Mus musculus with 16 samples.

Results

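Collagens, laminins and integrins build and bind the extracellular matrix, and 79 protein-coding genes of these families were read in 16 RNA-seq libraries of mouse intestinal organoids. All genes with a symbol of the form Col, number, a, number were taken as collagen genes (n = 44), those of the form Lama, Lamb or Lamc and a digit as laminin genes (n = 11), and those that begin with Itga or Itgb and a digit as integrin genes (n = 24). They were drawn from 46078 Ensembl genes in the count tables, of which 21596 are protein-coding. The integrin group held 20 subunits and 4 other genes that match the name pattern, namely Itgb1bp1, Itgb1bp2, Itgb2l and Itgb3bp.

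Epithelial cells sit on a basement membrane, a sheet in which laminin trimers of an alpha, a beta and a gamma chain and a network of type IV collagen are the main scaffolds. Integrins are receptors of an alpha and a beta subunit that cross the cell membrane and hold the cell to these proteins, and the pair of integrin alpha 6 and beta 4 anchors epithelia at hemidesmosomes. In the gut, most fibrillar collagen is made by mesenchymal cells beneath the epithelium. Organoids hold epithelium without that mesenchyme and grow in Matrigel, a gel of basement membrane proteins that is itself rich in laminin and type IV collagen, so the RNA values here concern what the cells transcribe and not the matrix around them.

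The study compared organoids with and without functional Apc, whose product restrains Wnt signalling, and followed them in conditioned medium (CM), which is medium taken from other organoid cultures. By their labels the libraries fell into 6 groups on a C57BL6 background: untreated Apc mutant (n = 2) and untreated WT organoids (n = 2) on day 2, Apc mutant (n = 3) and WT organoids (n = 3) in CM on day 2, and Apc mutant (n = 3) and WT organoids (n = 3) in CM on day 4. WT organoids carried the Lgr5-EGFP-IRES-CreERT2 knock-in, which expresses the recombinase in Lgr5 stem cells, and an mCherry reporter, and Apc-/- organoids carried that allele with Apcfl/fl, recombined in culture with 4OH-tamoxifen, and a Venus reporter. Villin-CreERT2.Apcfl/fl crypts are listed as a further source, and no label says which library came from them. All cultures received EGF, R-spondin and Noggin. The labels do not say that replicates came from separate cultures or animals, so p-values measure the spread between these samples, which may be technical.

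Several facts of the whole series bear on every comparison. The Wnt target Nkd1 averaged 486 ± 65.6 CPM (counts scaled to 1000000 of the TMM-adjusted library total; SD, n = 2) in untreated Apc mutant and 1.55 ± 0.346 CPM in untreated WT libraries, but in CM it averaged 1.61 CPM under the mutant and 3.66 CPM under the WT label on day 2, and 1.76 CPM and 4.67 CPM under the same labels on day 4. The target thus went against the mutant label in CM, and those 6 are called the libraries labelled Apc mutant. The titles' APCCM and WTCM could refer to either the organoids or the donor culture of the CM. The treatment field gives Apc mutant CM for all 12 of these libraries, and the stated series design does not match the labels, so label differences within CM cannot be told apart from differences of medium source. Untreated and CM libraries also differed in RNA content and sex-linked RNA: 68 histone genes summed to 41.5 to 46.2 CPM against 4429 to 6161 CPM in CM, and Xist stood at 1939 to 3707 CPM against 1.17 to 11.4 CPM in CM. Media were therefore not compared directly. Gene counts ranged from 8325979 to 29152692 per library, with at most 13027701 in the untreated ones. Replicate 1 of the WT label in CM on day 4 stood apart from its group, with a chi-square per degree of freedom of 43.9 and 46.4 against the other replicates where all other pairs within a group gave 3.49 to 6.55. The 7 epithelial markers were read in every library and summed to 3468 to 3767 CPM in untreated Apc mutant, 5646 to 6135 CPM in untreated WT and 6106 to 7171 CPM in CM libraries. Between the untreated groups, Epcam, Cdh1, Krt8, Krt19 and Vil1 averaged less in Apc mutant libraries. Krt18 averaged more there, at 921 against 612 CPM in WT, as did Cdx2, at 160 against 137 CPM.

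Of the 79 genes, 43 passed the filter on low counts and were tested, 17 of them collagens, 8 laminins and 18 integrin genes. The other 36 stayed at or below a group mean of 0.469 CPM, and 6 of them (Col3a1, Col11a1, Col24a1, Col6a4, Col6a6 and Itgb3) had no count in any library. Col1a2, which with Col1a1 forms type I collagen, had 1 count in all 16 libraries. Of the 43 genes tested, 12 passed only through the untreated mutant libraries, namely 10 collagens, Lama4 and Itgb8, so they had to be higher there. The number of collagen genes at a group mean of 1 CPM or more was 11 in untreated Apc mutant and 3 in untreated WT libraries, and in CM it was 4 and 3 on day 2 and 3 and 3 on day 4 for the Apc mutant and WT labels.

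**Figure D1:**
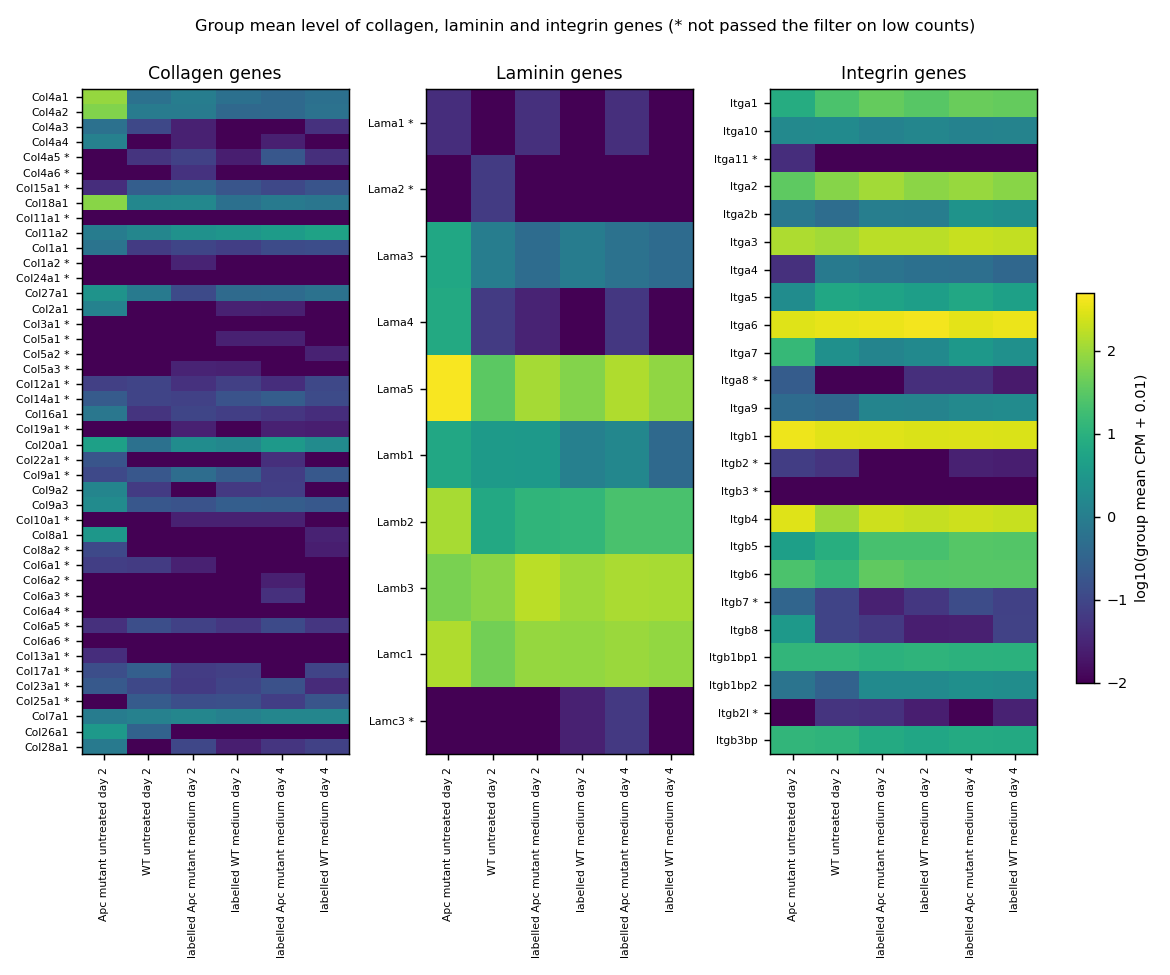
Group mean levels of collagen, laminin and integrin genes, as log10 of mean CPM plus 0.01, in the 6 groups (columns), by family and class; an asterisk marks genes that did not pass the filter. Most collagen rows are dark, apart from Col4a1, Col4a2 and Col18a1 in the untreated Apc mutant column, while Itgb1, Itga6, Itgb4 and Itga3 are bright in all 6 columns.

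Start-site sequence is shown for 5 of the genes that carry the results below: the head-to-head pair Col4a1 and Col4a2, the laminin chains Lama5 and Lamb2, and the collagen receptor subunit Itga2. Each is the RefSeq window on GRCm38.p6 that runs from 250 bases before to 50 bases after the gene's start, written on the gene's strand with GC boxes (GGGCGG or CCGCCC) and CCAAT boxes (CCAAT or ATTGG) in capitals. Such windows were matched for 58 of the 79 genes.
Col4a1, chr8:11312777-11313076, minus strand: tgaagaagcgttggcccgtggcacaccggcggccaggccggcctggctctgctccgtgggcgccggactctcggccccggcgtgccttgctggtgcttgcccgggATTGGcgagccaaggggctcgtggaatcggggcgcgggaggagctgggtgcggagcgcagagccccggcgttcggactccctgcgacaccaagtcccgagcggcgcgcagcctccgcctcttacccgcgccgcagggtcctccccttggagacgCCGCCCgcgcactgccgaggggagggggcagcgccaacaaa
Col4a2, chr8:11312555-11312854, plus strand: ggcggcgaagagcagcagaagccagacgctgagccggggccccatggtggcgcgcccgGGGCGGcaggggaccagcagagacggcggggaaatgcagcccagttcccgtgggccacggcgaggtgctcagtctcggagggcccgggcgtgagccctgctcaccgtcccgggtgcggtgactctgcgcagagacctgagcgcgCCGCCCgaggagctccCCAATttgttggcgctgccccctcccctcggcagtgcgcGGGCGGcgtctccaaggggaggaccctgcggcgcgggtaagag
Lama5, chr2:180225810-180226109, minus strand: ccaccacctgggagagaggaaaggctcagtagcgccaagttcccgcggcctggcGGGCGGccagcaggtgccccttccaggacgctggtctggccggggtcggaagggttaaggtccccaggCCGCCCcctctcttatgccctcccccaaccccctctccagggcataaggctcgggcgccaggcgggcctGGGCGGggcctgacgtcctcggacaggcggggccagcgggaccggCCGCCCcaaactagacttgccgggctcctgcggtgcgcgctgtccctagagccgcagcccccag
Lamb2, chr9:108479612-108479911, plus strand: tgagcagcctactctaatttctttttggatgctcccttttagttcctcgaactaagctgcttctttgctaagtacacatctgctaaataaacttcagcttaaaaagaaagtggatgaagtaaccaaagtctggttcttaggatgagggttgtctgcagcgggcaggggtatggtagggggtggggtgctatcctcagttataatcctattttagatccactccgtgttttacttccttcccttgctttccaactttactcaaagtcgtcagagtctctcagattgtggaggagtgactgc
Itga2, chr13:114932051-114932350, minus strand: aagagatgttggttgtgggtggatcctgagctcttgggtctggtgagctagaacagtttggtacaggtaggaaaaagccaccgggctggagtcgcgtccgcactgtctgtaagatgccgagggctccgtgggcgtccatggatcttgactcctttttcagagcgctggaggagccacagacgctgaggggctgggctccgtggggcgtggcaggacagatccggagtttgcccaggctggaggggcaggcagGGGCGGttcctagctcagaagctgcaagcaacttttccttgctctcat

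The annotated starts of Col4a1 and Col4a2 lie 21 bases apart on opposite strands, and the windows of the pair share 78 bases. Lama5 held 4 GC boxes, and the Lamb2 window held none of the motifs searched. A GC box occurred in 51.6% of the 64 windows of the family genes and in 35.7% of all 32851 windows, and a CCAAT box in 25% against 37.4%. The TCF/LEF motif of Wnt-responsive enhancers (CTTTGAT or ATCAAAG) occurred in 1 of the 64 windows, that of Col9a2, and in 3.73% of all windows. The TATA box (TATAAA or TTTATA) occurred in 7.81% against 13.6%. These are matches of letters on either strand and describe the windows only.

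Between families, levels are compared as CPM per kilobase of exon. The leading integrin genes were Itgb1, the beta subunit shared by most matrix-binding integrins, at a mean of 73.0 CPM per kb over the 16 libraries, the laminin receptor subunit Itga6 at 39.5, its hemidesmosome partner Itgb4 at 29.3, and Itga3, another laminin receptor subunit, at 28.6. Of the laminin chains, Lamb3 led at 17.1 CPM per kb, followed by Lama5 at 11.9 and Lamc1 at 11.2. The highest collagens were Col4a1 at 1.60, Col18a1 at 1.45 and Col4a2 at 1.31 CPM per kb, which rested on the untreated mutant libraries. In the untreated WT group these 3 collagens stood at 0.0730, 0.212 and 0.134 CPM per kb.

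The mix of chains also varied. Lama5 made up 97.0% of laminin alpha level per kb in untreated Apc mutant and 96.8% in untreated WT libraries, and 98.6 to 99.5% in the CM groups. Among the beta chains, Lamb2 made up 67.5% in untreated Apc mutant and 8.6% in untreated WT libraries, while Lamb3 made up 30.3% and 88.6%. In CM, Lamb3 held 82.9 to 91.4% of the beta level. These shares are descriptions of group means and carry no test.

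Summed over each family, collagen RNA stood at 256 ± 31.6 CPM in untreated Apc mutant and 8.94 ± 0.764 CPM in untreated WT libraries (SD, n = 2 each). In CM the collagen sum was 11.0 ± 1.91 CPM for the Apc mutant label and 8.67 ± 1.22 CPM for the WT label on day 2, and 12.2 ± 1.10 and 12.3 ± 1.08 CPM for the same labels on day 4 (SD, n = 3 each). The high collagen sum thus belonged to the untreated mutant libraries, and no other group mean passed 12.3 CPM. Laminin genes summed to 884 ± 123 CPM in untreated Apc mutant and 205 ± 21.0 CPM in untreated WT libraries. In CM they summed to 452 ± 9.17 CPM for the Apc mutant and 311 ± 9.26 CPM for the WT label on day 2, and to 446 ± 4.11 and 353 ± 27.3 CPM on day 4. Libraries did not overlap between labels in any of these 3 laminin pairs. Integrin genes summed to 1220 ± 9.80 CPM in untreated Apc mutant and 1023 ± 7.44 CPM in untreated WT libraries. In CM the integrin sum was 1292 ± 14.6 CPM for the Apc mutant and 1226 ± 5.68 CPM for the WT label on day 2, and 1266 ± 16.2 and 1219 ± 9.48 CPM on day 4. The integrin sums did not overlap between labels in any of these pairs either.

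**Figure D2:**
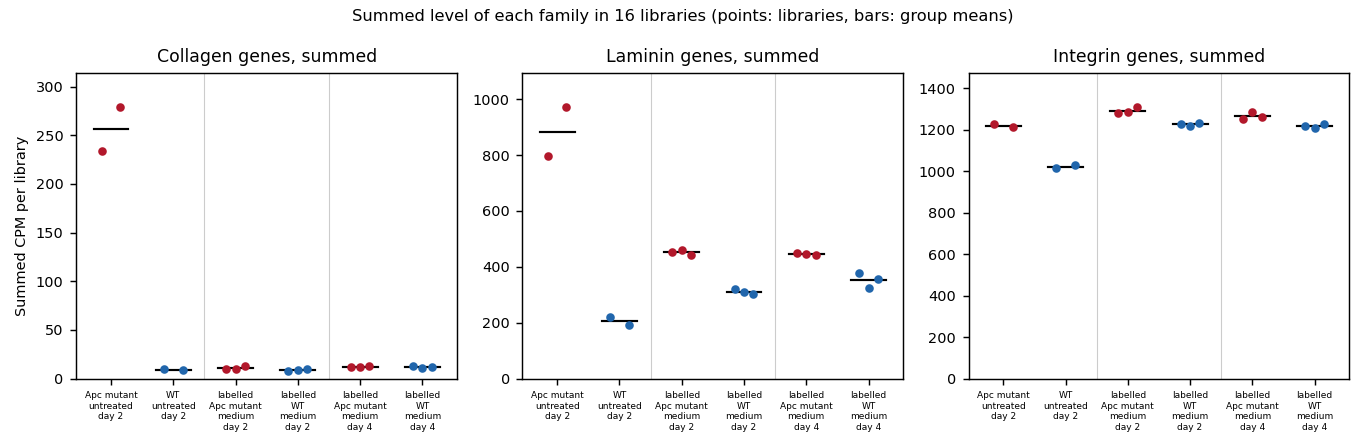
Summed CPM of the collagen, laminin and integrin genes in each library (points) with group means (bars), on linear axes from 0. Collagen sums reach 256 CPM on average in the untreated Apc mutant group and stay at or below 12.3 CPM in the other 5 group means. Laminin and integrin sums are higher under the Apc mutant label in each pair.

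In untreated organoids, type IV and other collagens and most laminin chains were higher in Apc mutant than in WT libraries, while integrin genes were split between higher and lower. By the quasi-likelihood test of edgeR, with p-values adjusted by Benjamini-Hochberg across 16510 genes, 28 of the 43 genes tested rose and 7 fell. Over all genes tested, 62.5% were called in this comparison, 32.4% higher and 30.1% lower. By family, 15 collagens rose and none fell, 7 laminins rose and 1 fell, and 6 integrin genes rose and 6 fell. Without the 12 that passed only through the untreated mutant libraries, 16 of 31 rose (51.6%) and 7 fell (22.6%), with a median log2 fold change of 0.67 against 0 over all genes. By family, these were 5 higher and 0 lower of 7 collagens, 6 higher and 1 lower of 7 laminins, and 5 higher and 6 lower of 17 integrin genes. In bulk libraries such as these, more cells of a type and more RNA per cell cannot be told apart.

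All 4 type IV collagen genes tested were called higher, and 2 of them, Col4a3 and Col4a4, had passed the filter only through the mutant libraries. Col4a1 (ENSMUSG00000031502, GRCm38 chromosome 8, 11198423 to 11312826, minus strand), a chain of the common type IV collagen trimer, stood at 84.2 and 99.1 CPM in untreated Apc mutant libraries, against 0.654 and 0.436 CPM in untreated WT libraries (log2 fold change 7.34, SE 0.41, adjusted p = 6.2e-14). Its partner chain Col4a2 (chromosome 8, 11312805 to 11449287, plus strand) stood at 62.2 and 68.4 CPM, against 0.899 and 0.872 CPM in WT (log2 fold change 6.19, SE 0.26, adjusted p = 2.1e-16). Both mutant libraries were far above both WT libraries for each chain. Col4a4, a chain of the type IV network known from kidney glomeruli, had 35 counts in mutant and 0 in WT libraries, at least 8.11-fold higher against a floor of 3 counts over the group. Col4a3, its head-to-head neighbour with a start 72 bases away, had 17 counts against 2, a ratio of 5.91 (95% counting interval 1.40 to 52.7). Col4a5 and Col4a6 did not pass the filter.

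Col18a1 (chromosome 10, 77052178 to 77166548), the basement membrane collagen from which endostatin is cut, stood at 64.1 and 84.6 CPM in untreated Apc mutant, against 1.55 and 1.42 CPM in untreated WT libraries (log2 fold change 5.63, SE 0.22, adjusted p = 4.2e-17). The groups did not overlap, and Col18a1 overlaps Slc19a1 on the opposite strand, which counts without a stated strand setting cannot separate. Itga7, Itga4 and Col9a3 likewise overlap the protein-coding genes Mettl7b, Cerkl and Tcfl5 on the opposite strand. Itga1 and Itga10 overlap Pelo and Gm42957 on the same strand. Col8a1, Col2a1, Col9a2, Col9a3, Col26a1, Col28a1, Col16a1 and Col1a1 passed the filter only through the untreated mutant libraries. These genes had to be higher there. Col8a1, a short-chain collagen of vessel and corneal membranes, had 94 counts in mutant and 0 in WT libraries, at least 21.8-fold higher. Among the fibrillar collagens, Col2a1, the main collagen of cartilage, had 38 counts against 0, at least 8.81-fold higher. Of the type IX chains that coat cartilage fibrils, Col9a2 had 42 counts against 1, a ratio of 29.2 (95% counting interval 4.96 to 1181). Col8a1, Col2a1 and Col9a2 had group means of 1.22 to 3.06 CPM in the untreated mutant libraries. Col20a1 and Col27a1 rose by 3.15 and 1.68 on the log2 scale, with at least 0.327 CPM in each WT library, and Col26a1 and Col9a3 rose by 3.43 and 3.29. Of the rarest collagens called, Col28a1 had 26 counts against 0, at least 6.03-fold higher, Col16a1 22 against 1 and Col1a1 20 against 1. Col7a1, which forms anchoring fibrils, and the fibrillar Col11a2 were tested and not called.

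Alpha, beta and gamma laminin chains rose. Lama5 (chromosome 2, 180176373 to 180225859), the main alpha chain of adult epithelial basement membranes, stood at 388 and 514 CPM in untreated Apc mutant, against 37.3 and 29.3 CPM in untreated WT libraries (log2 fold change 3.75, SE 0.12, adjusted p = 1.2e-18). Lamb2, a beta chain that can pair with it, stood at 104 and 136 CPM against 7.76 and 6.11 CPM in WT (log2 fold change 4.09, SE 0.17, adjusted p = 1.3e-16). The lower mutant library was over the higher WT library for both chains. Lamc1, the common gamma chain, stood at 137 and 142 CPM against 48.8 and 51.0 CPM in WT (log2 fold change 1.49, SE 0.08). Lama4, a chain known from vessel walls, had 220 counts in mutant and 1 in WT libraries (95% counting interval of the ratio 27.2 to 6070). Lama4 passed the filter only through the mutant libraries, so it had to be higher there.

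Laminin chains did not all move alike. Lama3, an alpha chain of epithelial anchoring laminin, stood at 6.72 and 6.11 CPM in untreated Apc mutant, against 1.14 and 0.763 CPM in untreated WT libraries (log2 fold change 2.71). Lamb3 (chromosome 1, 193207699 to 193343878) was the laminin gene that fell, at 54.1 and 61.9 CPM against 88.4 and 67.3 CPM in WT (log2 fold change -0.43, SE 0.09, adjusted p = 0.00021). The mutant and WT libraries of Lamb3 were separate but close, and Lamb3 overlaps Hsd11b1 and G0s2 on the opposite strand.

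**Figure D3:**
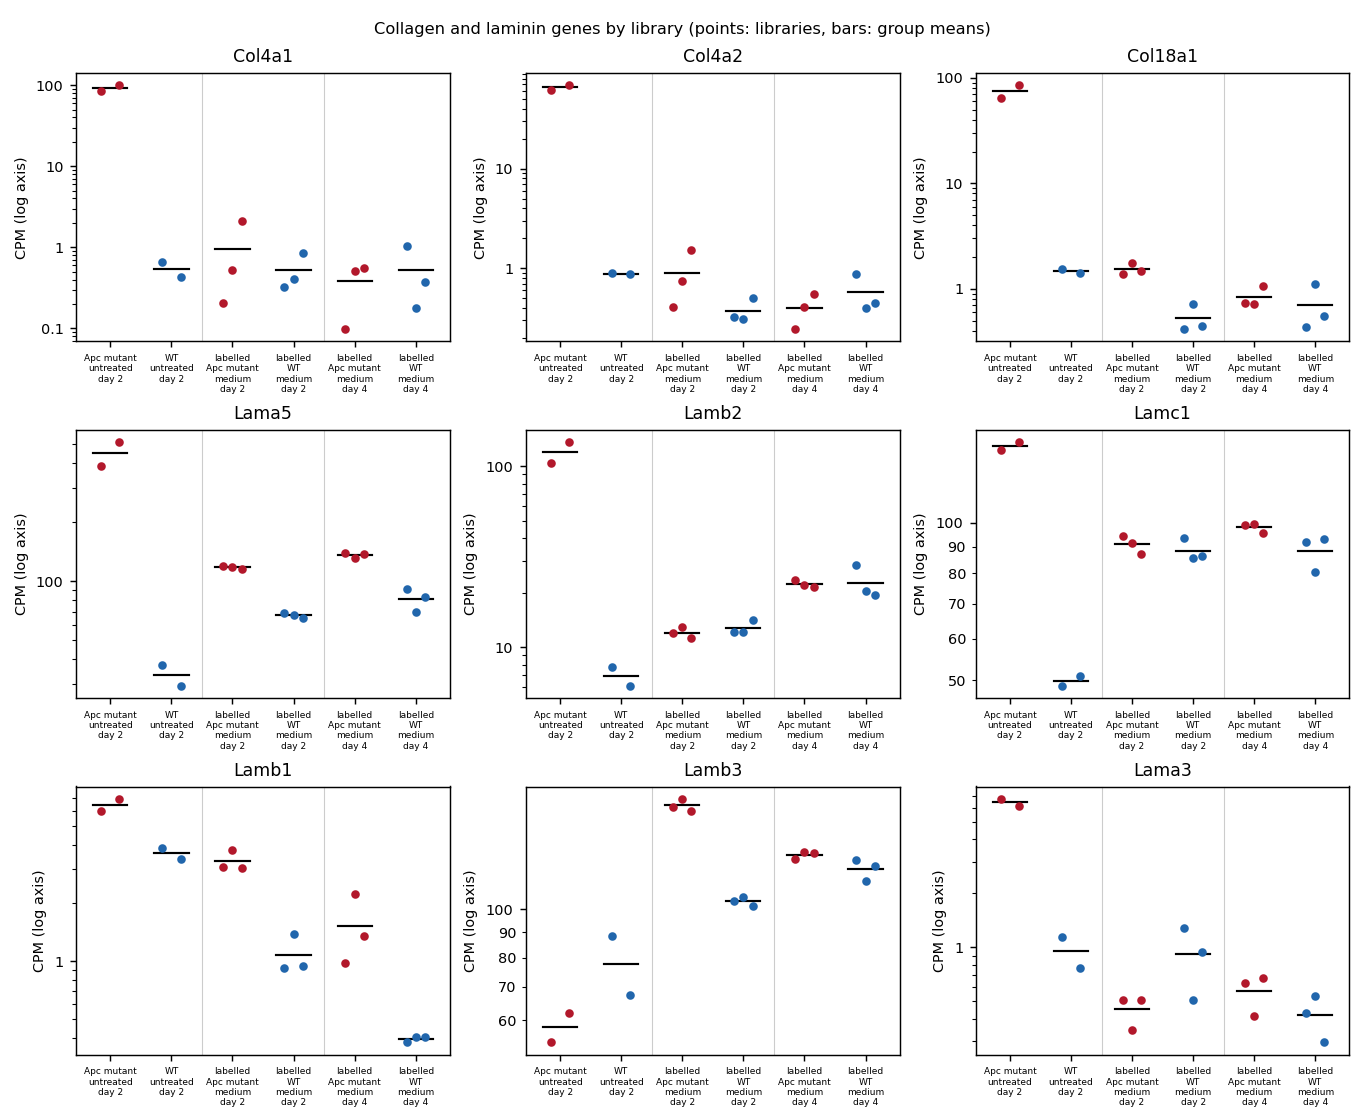
CPM of 9 collagen and laminin genes in each library (points; red under the Apc mutant and blue under the WT label) with group means (bars), on log axes. Col4a1, Col4a2, Col18a1, Lama5 and Lamb2 are highest in the 2 untreated Apc mutant libraries, and Lama5 and Lamb1 are higher under the Apc mutant label in each pair.

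Among integrin genes, Itgb4 (chromosome 11, 115974709 to 116008412) stood at 258 and 324 CPM in untreated Apc mutant, against 118 and 93.1 CPM in untreated WT libraries (log2 fold change 1.46, SE 0.09, adjusted p = 5.7e-13). Its alpha partner Itga6 stood at 306 and 274 CPM against 335 and 348 CPM in WT (log2 fold change -0.24, SE 0.06, adjusted p = 0.0016). The genes of this pair moved in opposite directions, without overlap of the libraries for either, although the call on Itga6 was lost without replicate 5 of the untreated mutant (adjusted p = 0.058). Itgb1 stood at 415 and 356 CPM against 300 and 324 CPM in WT (log2 fold change 0.31, SE 0.07, adjusted p = 0.00027). Itga7, a laminin receptor subunit best known in muscle, stood at 13.1 and 15.4 CPM against 1.96 and 2.51 CPM in WT (log2 fold change 2.69, SE 0.23, adjusted p = 1.3e-10). Both genes were without overlap between labels. Itgb8, a subunit that binds latent TGF-beta, had 105 counts in mutant and 2 in WT libraries, a ratio of 36.5 (95% counting interval 9.86 to 305). Itgb8 passed the filter only through the mutant libraries, so it had to be higher there.

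Itga2 and Itga1, which bind collagen, fell. Itga2 (chromosome 13, 114833081 to 114932100) stood at 34.8 and 34.1 CPM in untreated Apc mutant, against 66.3 and 72.6 CPM in untreated WT libraries (log2 fold change -1.01, SE 0.07, adjusted p = 1.2e-11). Its neighbour Itga1 stood at 8.59 and 7.95 CPM against 21.1 and 25.3 CPM in WT (log2 fold change -1.48, SE 0.12, adjusted p = 1.1e-10). Mutant libraries were at less than the WT level in both genes, with no overlap. Itga5, the fibronectin receptor subunit, fell by 1.75 on the log2 scale, Itgb5, which pairs with the alpha V subunit, fell by 0.95, and Itga4 fell at 1 count in mutant and 16 in WT libraries (95% counting interval of the ratio 0.00104 to 0.28). Itgb6 and Itga3 rose by 0.73 and 0.26 on the log2 scale, and Itga10, another collagen-binding subunit, was not called.

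**Figure D4:**
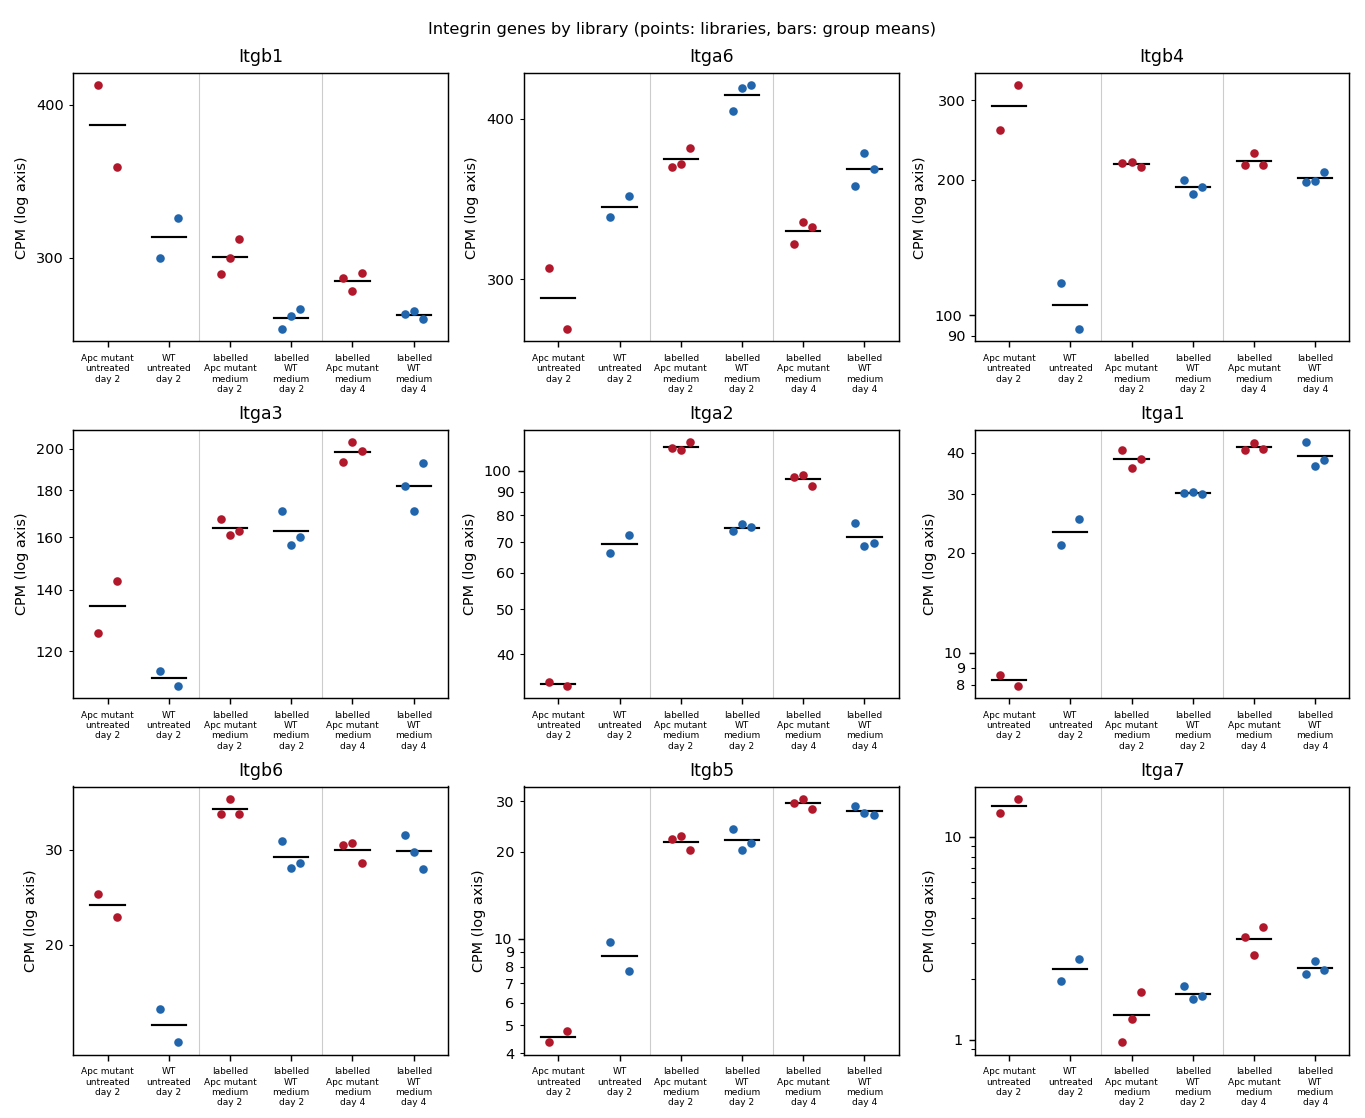
CPM of 9 integrin genes in each library (points; red under the Apc mutant and blue under the WT label) with group means (bars), on log axes. In untreated organoids Itgb4 and Itga7 are higher and Itga1, Itga2 and Itgb5 lower in Apc mutant than in WT libraries, and in CM Itga2 is higher under the Apc mutant label.

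A list of 73 other genes of the matrix and adhesion pathway had 34 higher and 12 lower of 59 tested in untreated Apc mutant libraries, where 32.4% of all genes were higher and 30.1% lower. Fn1, Fermt2 and 4 more of these passed the filter only through the untreated mutant libraries, and without them 29 of 53 were higher and 12 lower. Enzymes that modify collagen had 11 higher and 1 lower of 13 tested. Without Loxl2, which passed only through the untreated mutant libraries, 10 were higher and 1 lower of 12. Among those higher, the lysyl oxidase Loxl4 had 792 counts against 2 in WT (95% counting interval of the ratio 76.0 to 2278). Basement membrane partners had 6 higher and 4 lower of 10, and 5 higher and 4 lower of 9 without Fn1. Fn1, the fibronectin gene, had 3452 counts in mutant and 3 in WT libraries (95% counting interval of the ratio 274 to 3882). Nid1, the nidogen that links laminin to type IV collagen, had 0 counts in mutant and 43 in WT libraries, at least 20.6-fold lower. Of 15 adhesion adaptors tested, 7 rose and 4 fell, and without Fermt2 6 of 14 rose and 4 fell. Fermt2, an integrin activator, had 604 counts against 1 in WT (95% counting interval of the ratio 75.1 to 16617).

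Markers of other cell types moved with this comparison in part. The 8 fibroblast and stromal markers summed to 271 to 287 CPM in untreated Apc mutant and 5.998 to 6.70 CPM in untreated WT libraries, of which Vim made up 277 and 5.16 CPM on average. Dcn, Lum and Thy1 of that list were at 0 in all 16 libraries, and smooth muscle markers summed to at most 0.831 CPM. Endothelial markers summed to 3.95 to 4.28 CPM in untreated Apc mutant and 1.96 to 2.12 CPM in untreated WT libraries, with Cdh5 at 0 in all 16. Glia and nerve markers summed to 3.06 to 3.19 CPM and 1.74 to 1.96 CPM in the same groups. Immune markers summed to at most 0.659 CPM in any library. Within the stromal list, Pdgfra had 21 counts in untreated Apc mutant and 2 in untreated WT libraries. Postn had 18 and 9 counts in the same groups, Pdgfrb 1 and 7, and Fap 2 and 7. The part of these markers' cells in the collagen values was not tested.

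In CM on day 2, 4 of the 8 laminin chains tested and the collagen-binding integrin subunits Itga2 and Itga1 were moderately higher in the libraries labelled Apc mutant than in those labelled WT. Of the 43 genes tested, 10 rose and 2 fell, while 16.7% of all genes were called, 8.54% higher and 8.15% lower. Laminins had 4 higher and none lower of 8, collagens 2 higher and 1 lower of 17, and integrin genes 4 higher and 1 lower of 18. The median log2 fold change was 0.26 over the genes tested, against 0 over all genes. Without the 12 that passed the filter only through the untreated mutant libraries, the median was 0.17 over the other 31.

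Lamb1, a beta chain of early and many adult laminins, stood at 3.07, 3.76 and 3.04 CPM under the Apc mutant label, against 0.920, 1.38 and 0.945 CPM under the WT label (log2 fold change 1.60, SE 0.24, adjusted p = 3.9e-05). The lowest library labelled Apc mutant was above the highest labelled WT. Lama5 stood at 120, 118 and 116 CPM against 69.1, 67.1 and 65.3 CPM under the WT label (log2 fold change 0.81, SE 0.09, adjusted p = 3.8e-07). Lamb3 stood at 160, 166 and 157 CPM against 104, 106 and 101 CPM under the WT label (log2 fold change 0.64, SE 0.07, adjusted p = 2e-07). These values did not overlap between labels, and Lamb2 and Lamc1, which rose in untreated mutant libraries, were not called here, with Lamb2 at 12.0 ± 0.835 CPM and 12.8 ± 1.10 CPM for the Apc mutant and WT labels (SD, n = 3 each).

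Itga2 stood at 112, 111 and 115 CPM under the Apc mutant label, against 73.8, 76.5 and 75.5 CPM under the WT label (log2 fold change 0.59, SE 0.05, adjusted p = 1.6e-08). Itga1 stood at 40.9, 36.1 and 38.4 CPM against 30.3, 30.4 and 30.1 CPM under the WT label (log2 fold change 0.35, SE 0.07, adjusted p = 0.0014). Itga2 and Itga1 were thus higher in every library labelled Apc mutant than in any labelled WT. Itgb6, part of an epithelial receptor for fibronectin and latent TGF-beta, rose by 0.29 on the log2 scale. Itgb1 rose by 0.17 (adjusted p = 0.034) and Itga6 fell by 0.17 (adjusted p = 0.02), and both calls were lost without 1 of the WT libraries, at adjusted p = 0.118 without replicate 1 for Itgb1 and 0.081 without replicate 3 for Itga6.

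Most collagens were at low levels in CM, with 4 or fewer at a group mean of 1 CPM or more. Col18a1 stood at 1.38, 1.74 and 1.47 CPM under the Apc mutant label, against 0.414, 0.715 and 0.448 CPM under the WT label (log2 fold change 1.53, SE 0.33, adjusted p = 0.002). Col4a2 was called at 0.409, 0.753 and 1.52 CPM against 0.322, 0.306 and 0.498 CPM under the WT label (log2 fold change 1.25, SE 0.43, adjusted p = 0.045), with overlapping libraries. Without replicate 3 of the Apc mutant label its log2 fold change was 0.61 (adjusted p = 0.451), and that library also had the highest Col4a1 in CM, at 2.13 CPM. Col27a1, a fibrillar collagen, fell at group means of 0.102 CPM and 0.406 CPM for the Apc mutant and WT labels. Of the related list, 9 rose and 10 fell of 59. P4ha2, a collagen prolyl hydroxylase subunit, fell by 1.64, the lysyl hydroxylase Plod2 by 0.78 (adjusted p = 0.0543 without replicate 1 of the Apc mutant label) and the leukocyte subunit Itgam by 0.91 on the log2 scale, and the matrix protease Mmp7 rose by 1.07. The 19 related genes called became 12 without replicate 3 of the Apc mutant label.

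In CM on day 4, fewer of the genes were called, 5 higher and 1 lower of 43 under the Apc mutant label, with 15.6% of all genes called, 7.83% higher and 7.8% lower. The median log2 fold change over the genes tested was 0.09. Lama5 stood at 139, 132 and 137 CPM under the Apc mutant label, against 91.1, 69.8 and 83.6 CPM under the WT label (log2 fold change 0.74, SE 0.09, adjusted p = 1.2e-06). Lamb1 stood at 0.978, 2.22 and 1.35 CPM against 0.380, 0.403 and 0.406 CPM under the WT label (log2 fold change 1.90, SE 0.33, adjusted p = 0.00018). Lama5 and Lamb1 were separate between labels, as on day 2.

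Itga2 stood at 97.0, 98.1 and 92.5 CPM under the Apc mutant label on day 4, against 77.1, 68.7 and 69.8 CPM under the WT label (log2 fold change 0.42, SE 0.05, adjusted p = 3.2e-06). Col20a1, a fibril-associated collagen, stood at 3.32, 2.99 and 3.67 CPM against 1.63, 1.97 and 2.03 CPM under the WT label (log2 fold change 0.82, SE 0.19, adjusted p = 0.0036). Neither gene overlapped between labels, and Itga6 was the gene that fell (log2 fold change -0.16, adjusted p = 0.025), a call lost without replicate 1 of the Apc mutant label (adjusted p = 0.108). Without the WT library that stood apart, the same 6 genes were called, with log2 fold changes of 0.83 for Lama5, 1.87 for Lamb1, 0.47 for Itga2, 0.74 for Col20a1 and -0.18 for Itga6. Of the related list, 6 rose and 6 fell of 59. Hspg2, the perlecan core protein of basement membranes, rose by 0.69 and the talin gene Tln2 by 0.58 on the log2 scale, and Plod2 fell by 0.96 and the protease inhibitor Timp2 by 0.63.

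**Figure D5:**
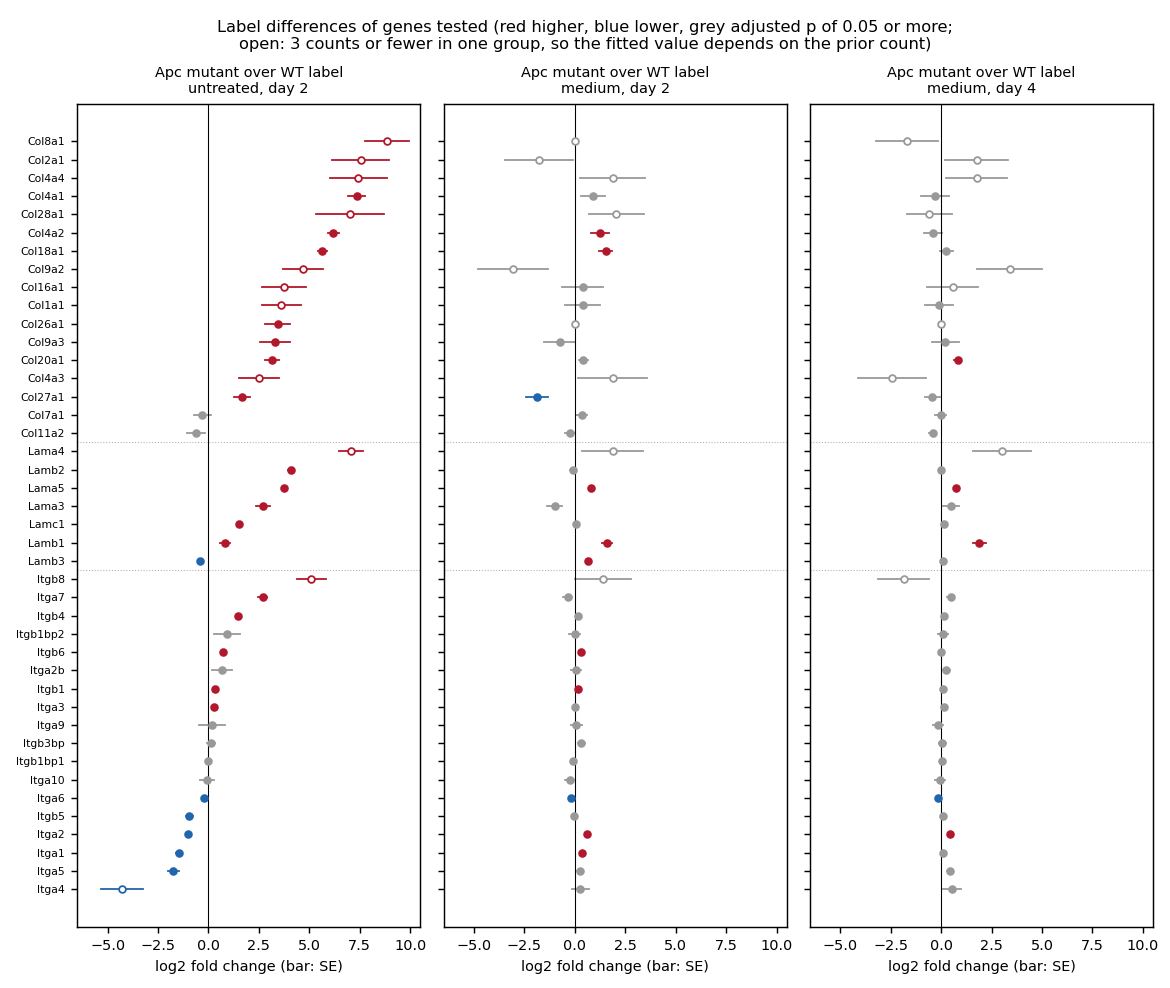
Log2 fold change of the Apc mutant over the WT label with its SE (bar) for genes tested, in untreated organoids and in CM on days 2 and 4; red and blue mark genes called higher and lower, and open points have 3 counts or fewer in one group. Collagens and laminins reach far to the right in the untreated panel, and Lama5 and Lamb1 are called higher in all 3 panels.

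The label effect itself differed between untreated and CM organoids on day 2 for 23 of the 43 genes, 17 in the positive and 6 in the negative direction, and for 20 of the 31 that did not pass the filter through the untreated mutant libraries alone, 14 positive and 6 negative, while 53.1% of all genes differed, 26.4% positive and 26.7% negative. A positive value means that the change of the Apc mutant over the WT label was larger in untreated organoids. In CM that label may name the donor culture of the medium, so the label changes compared may not be of the same kind. It was 6.45 (SE 0.97, adjusted p = 4e-06) for Col4a1 and 4.18 (SE 0.22, adjusted p = 3.2e-14) for Lamb2 on the log2 scale. Itga2 and Itga1 were negative, at -1.59 (SE 0.09, adjusted p = 1.4e-13) and -1.82 (SE 0.14, adjusted p = 6.2e-11), since both were lower in untreated mutant libraries and higher under the mutant label in CM. Lamb3 was negative as well, at -1.07 (SE 0.11, adjusted p = 1.5e-08). This difference compares libraries that also differ in RNA content and sex-linked RNA, and the part of those differences cannot be told apart from that of the medium.

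Between day 2 and day 4 in CM, 8 of the 43 genes rose and 8 fell under the Apc mutant label, where 23.9% of all genes were called, 12.2% higher and 11.7% lower. Under the WT label 8 rose and 3 fell, where 24.1% of all genes were called, 12.5% higher and 11.6% lower. The count under the WT label was 7 without replicate 3 of either day. Lamb2 averaged 22.3 ± 0.969 CPM on day 4 and 12.0 ± 0.835 CPM on day 2 under the Apc mutant label (log2 fold change 0.89, SE 0.13, adjusted p = 1.1e-05), and 22.7 ± 4.81 CPM and 12.8 ± 1.10 CPM under the WT label (log2 fold change 0.82, SE 0.12, adjusted p = 2.9e-05; SD, n = 3 each). Lamb1 fell by 1.12 on the log2 scale under the Apc mutant and by 1.42 under the WT label. Itga2b, the alpha subunit of the platelet fibrinogen receptor, rose by 1.33 under the Apc mutant and 1.14 under the WT label. All these genes were called on each label, and none of the libraries overlapped between the days.

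Further genes were called on day 4 under one label or the other. Itga7 averaged 3.15 ± 0.482 CPM on day 4 and 1.32 ± 0.378 CPM on day 2 under the Apc mutant label (log2 fold change 1.25; SD, n = 3 each). Col20a1 rose by 0.77 and Col18a1 fell by 0.84 on the log2 scale under that label, and the call on Col18a1 was lost without replicate 2 of day 2 (adjusted p = 0.123). Under the WT label Col11a2, a fibrillar collagen chain, rose by 0.87, Itga1 by 0.37 and Itgb5 by 0.33. Without the WT library that stood apart, these 3 log2 fold changes were 0.75, 0.30 and 0.30, that of Lamb2 was 0.64, and 8 genes were called, with Lama5, Lamb3 and Itga3 no longer among them.

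Whether the label effect changed between the days was tested directly. Of the 43 genes, 1 was called, Lamb3 (log2 difference -0.54, SE 0.09, adjusted p = 0.0013), where 2.13% of all genes were called, 0.884% positive and 1.24% negative. Lamb3 stood at 126, 130 and 130 CPM under the Apc mutant label on day 4, against 126, 114 and 122 CPM under the WT label (log2 fold change 0.10, not called). The gap of day 2 was thus smaller on day 4, as Lamb3 fell by 0.33 on the log2 scale under the Apc mutant label and rose by 0.21 under the WT label. Without the WT library that stood apart the log2 difference was -0.51 (adjusted p = 0.0053).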

How the data were processed

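RNA from 16 organoid libraries was prepared by ribosomal RNA depletion, per the labels' protocols. The authors deposited raw whole-number counts per Ensembl gene for each library. Build GRCm38 and the tools HISAT2 2.1.0, HTSeq 0.6.1p1 and Trimmomatic 0.36 are named, per the submitters' processing notes. For strand setting and annotation release, the sources used here say nothing. The 5 summary lines were left out, of which multi-mapped reads were 26.5 to 38.9% and reads outside features 4.78 to 19.2% of a library. Symbols and coordinates came from GENCODE M21 (98.2% of identifiers), and promoter windows from RefSeq.

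The quasi-likelihood test of edgeR 4.0.16 (R 4.3.3, limma 3.58.1), with p-values adjusted by Benjamini-Hochberg, was run in 1 fit of 6 groups with TMM scaling and filterByExpr, which kept 16510 genes and left 10 residual degrees of freedom. The threshold was an adjusted p under 0.05, and the scripts were tested on simulated data. Alternatives were RLE scaling, DESeq2 1.42.0, no filter, other library sizes, a fit of the compared groups, a replicate block and leaving out each library. Counting intervals and floors (3 counts) cover counting error only. Genes named in full were called, without overlap of libraries and at 1 CPM or more, up to 10 by fold change per label comparison and 6 per day comparison, with the 3 highest per kb of each family, and genes called in a test of a difference. Col4a3, Lama3, Itga10 and other genes outside that rule were named to complete a class after their values were seen. Members and lists were chosen with earlier results of these data known. One gene that enters the counts and sums is not reported here by name.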

Additional observations from a re-analysis of the deposited data

Results flagged for a closer look

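The label effect on 1 of the 43 genes tested differed between days in CM, where 2.13% of all genes were called. For Lamb3 the difference of the log2 fold changes, day 4 minus day 2, was -0.54. The label effect also differed between untreated and CM organoids on day 2 in 23 of the 43 genes, where 53.1% of all genes differed. The 6 with the largest differences among those at 1 CPM or more in a group are given here. The log2 differences were 6.45 for Col4a1, 4.94 for Col4a2, 4.18 for Lamb2 and 4.10 for Col18a1, each from a test of the difference itself. Col2a1 at 9.33 and Col9a2 at 7.75 were called as well, but these fitted values rest on groups with 0 to 3 counts. Both calls were lost without replicate 3 of the WT label in CM on day 2. Col2a1 and Col9a2 passed the filter only through the untreated mutant libraries, so their positive sign was set by that filter.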

How the results depend on the processing

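The 74 gene results were recomputed under the alternatives, which gave 536 values. None that was called in either fit changed direction, 518 kept their side of the threshold, 13 lost and 5 gained the call. Of the libraries left out in turn, only the weakest outcome per gene result was counted. Changes of sign between uncalled values were not counted. Col4a1 in CM on day 4 averaged 0.387 CPM under the Apc mutant and 0.526 CPM under the WT label. Without the WT library that stood apart, its log2 fold change was 0.47, not called. Without each library in turn, the number of family genes called was 32 to 34 untreated, 8 to 11 in CM on day 2, 5 to 6 on day 4, 12 to 16 between days under the Apc mutant label, 7 to 11 under the WT label, 1 to 1 for label by day and 21 to 24 for untreated against CM. Related genes called were 43 to 46, 12 to 18 and 8 to 10 in the 3 label comparisons. The replicate numbers did not pair the libraries, as same-numbered libraries in CM correlated at -0.08 to 0.07 in their deviations, and with the replicate block 35, 10 and 6 family genes were called in the 3 label comparisons. With the untreated pairs crossed, an alternative chosen after seeing the data (correlation -0.29), 34 were called. DESeq2 and the replicate block left Col4a2 in CM on day 2 uncalled (adjusted p = 0.061 and 0.053), the replicate block also left Itgb1 in CM on day 2 and the untreated against CM difference of Col2a1 uncalled (adjusted p = 0.058 and 0.056), and Itgb4 in CM and Lamc1 on day 4 were called under 3 and 2 alternatives. Scaling moved the median of all genes by under 0.1 (log2). Low counts limit the tests of collagens in CM, most of which had under 1 CPM.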
